A study of Nasonia vitripennis with 51 samples.

Results

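Chromosome 2 of the parasitoid wasp Nasonia vitripennis carried 364 clusters of methylated CpGs, holding 2302 CpGs of the 684926 on this chromosome with reads in all 18 sucrose samples. A CpG is a cytosine followed by a guanine, and its methylation level is the share of bisulphite reads in which that cytosine stayed unconverted. The members were selected on these measured values: a CpG counted as methylated when its level, averaged over the 18 sucrose samples, was at least 50%. A cluster was a run of at least 3 methylated CpGs, each at most 500 bp from the next. The whole series held 2063 such clusters, with 402 on chromosome 1, 375 on chromosome 3, 147 on chromosome 4, 101 on chromosome 5 and 674 on unplaced scaffolds. Levels in sucrose samples, and differences from them, are therefore given as descriptions with no test.

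The 51 whole-genome bisulphite libraries came from females of AsymC, a wild-type laboratory strain cured of the bacterium Wolbachia, and each library was a pool of 10 females, so that differences between single wasps were averaged. The feeding regimes were 20% sucrose with 10 µM 5-aza-2'-deoxycytidine (5-aza-dC) for 48 h (17 samples), the same solution for 24 h (16 samples), and 20% sucrose alone for 24 h (18 samples). Heads (24 samples) and bodies, that is thorax with abdomen (27 samples), were harvested 0, 24 or 48 h after feeding, which gave 15 groups of 3 samples and 3 groups of 2. 5-aza-dC is an analogue of cytidine used to inhibit the enzymes that methylate DNA, and the study asked what it does to methylation genome-wide.

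In insects, DNA methylation is sparse and is found mostly in the bodies of broadly expressed genes, often in their exons, while most of the genome between them carries little. Maintenance methyltransferases of the Dnmt1 family copy the marks after DNA replication, and 5-aza-dC acts by trapping these enzymes once it has been built into new DNA. Positions below are those of the deposited table on its chromosome 2. The genome build is not given in the sources used here, so no gene, exon or sequence is named at any position.

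Samples held 10955117 to 200008536 reads in the deposited table. Member CpGs shared by all samples had a mean of 5.64 to 75.7 reads per sample (median 31.5). The 2 shallowest samples, replicate 1 of 48 h 5-aza-dC bodies at 0 h and replicate 1 of 24 h 5-aza-dC heads at 48 h, had 5.64 and 5.67 reads, and the next had 13.1. Depth bears on counting error only. Reads of bisulphite libraries can be copies of 1 molecule, so the counting error can be larger than the depth implies.

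The clusters were short runs of closely spaced methylated CpGs in a chromosome with little methylation. They held 3 to 31 CpGs (median 5.00) and 98 of them had only 3. The 58 clusters of 10 or more CpGs held 809 members (35.1%). Lengths ran from 9 to 1584 bp (median 290.5 bp), and all clusters together covered 127194 bp, or 0.420% of the span from the first to the last CpG. Neighbouring members lay a median of 32.0 bp apart, and 66.8% of the steps were under 50 bp. Of the 2881 methylated CpGs on the chromosome, the remaining 579 lay outside clusters, 231 of them alone and the others in 174 pairs.

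The largest cluster, at 9766024 to 9767607, was also the longest, with 31 members over 1584 bp and no weaker CpG between them. Its members had sucrose levels of 71.4% to 97.4%. The cluster at 6644573 to 6645343 held 28 members over 771 bp. Its first and last CpG were at 61.0% and 65.5%, the lowest values in it, while those between reached 98.4%. The cluster at 29375791 to 29376644 held 25 members over 854 bp, with 6 weaker CpGs among them. By contrast, the cluster at 10271928 to 10273439 spread 9 members over 1512 bp.

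Clusters were found along the whole chromosome, with uneven density. Each of the 30 full windows of 1 Mb held 2 to 23 clusters (median 12.5). The densest were the windows that start at 1000001, with 23 clusters, and at 9000001 and 25000001, with 22 each. The window that starts at 3000001 held 2 clusters, although 24418 of its CpGs had reads. The longest stretch without a cluster ran over 1313721 bp, between 22063976 and 23377697, and 6 of its 25324 CpGs were methylated. Otherwise the gap between consecutive clusters had a median of 24209 bp, and 74 of the 363 gaps were under 5 kb. The last 0.3 Mb held 11 clusters, and 1.22% of the CpGs with reads there were members, the highest share of any window.

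Sucrose levels of the members averaged 84.4% (median 88.3%, range 50.1% to 98.8%). At least 80% was reached by 1678 members (72.9%) and at least 90% by 956 (41.5%), while 126 (5.47%) lay under 60%. At the edges of the definition, the lowest member had 50.1% and the highest CpG left out within a cluster had 50.0%; the widest step inside a cluster was 495 bp and the narrowest step that ended one was 503 bp. The cluster with the highest mean, at 362326 to 362542, had 4 members averaging 95.5%. The lowest mean, 58.4%, belonged to 4 members at 24965076 to 24965166.

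Neighbouring members had close levels, while levels fell sharply outside the clusters. All members were chosen at 50% or more, which limits how far they can differ, and pairs of distant members were not compared. Adjacent members differed by a median of 6.00 percentage points over 1938 pairs, by 5.33 points where they were under 50 bp apart and by 7.71 points at 200 to 500 bp. In the 199 clusters of at least 5 members, the first and last CpG averaged 81.9%, the second from either end 84.9% and the interior 86.4%. Within the span of the clusters, 203 other CpGs had reads, with a median of 24.1%, and 58 of them were under 10%. With those lacking reads in some sucrose sample included, 221 other CpGs fell in 97 clusters, so 267 clusters were unbroken runs of members. Outside, the mean was 16.9% within 50 bp of a cluster edge, 8.82% at 51 to 100 bp, 4.26% at 101 to 200 bp and 1.37% at 10001 to 50000 bp. The rule itself keeps CpGs of 50% or more out of the first 500 bp, but not lower values.

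CpGs with reads were sparser beside the clusters than far from them. Their density was 5.05 per kb in the first 50 bp outside a cluster, 10.1 per kb at 201 to 500 bp, 13.6 per kb at 501 to 1000 bp and 23.7 per kb at 10001 to 50000 bp. Inside the clusters it was 19.7 per kb, against 22.6 per kb over the whole chromosome. The values just outside are lowered by the definition too, since a methylated CpG there would have extended the cluster. The value inside is raised by the definition, since every cluster begins and ends at a CpG.

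**Figure D1:**
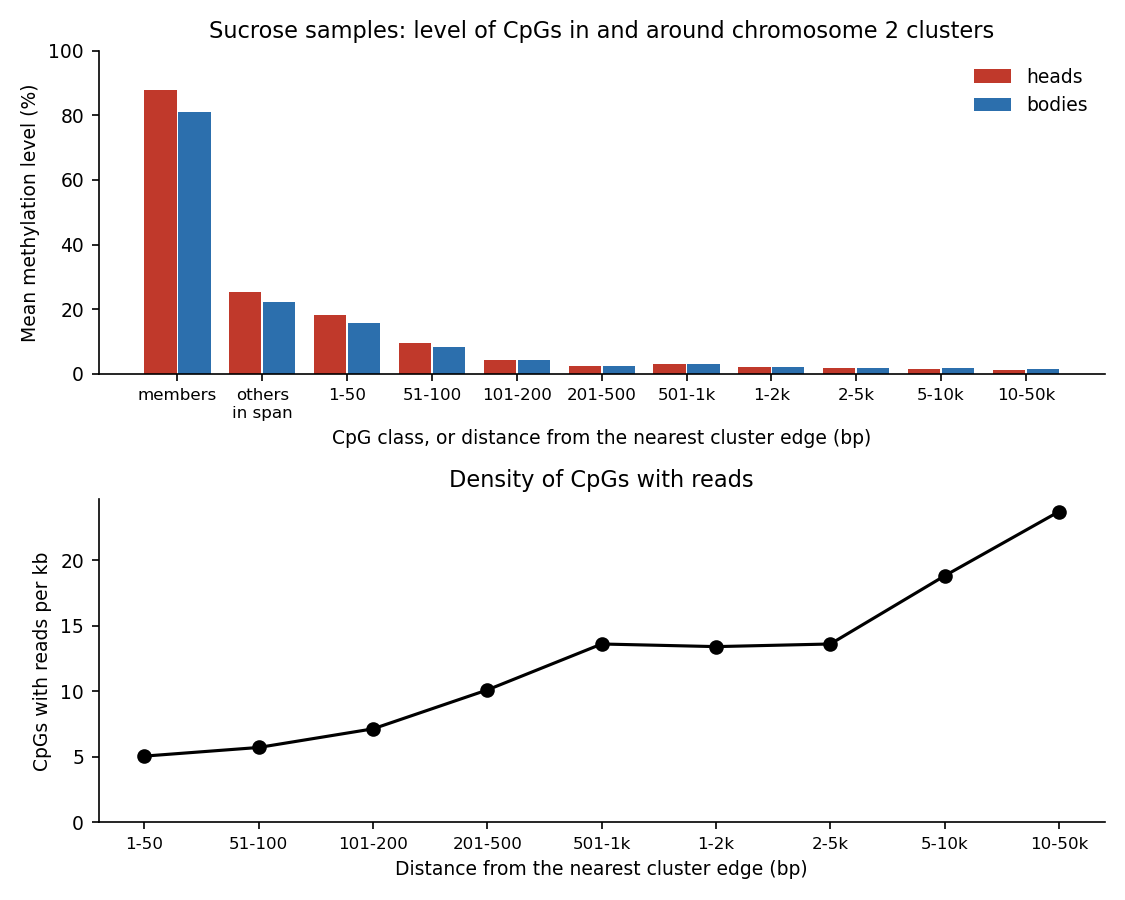
Mean methylation level in sucrose samples (%, upper panel) for cluster members, other CpGs within the clusters and CpGs by distance from the nearest cluster edge in bp, with heads left of bodies, and the density of CpGs with reads per kb by the same distances (lower panel). Members averaged 87.9% in heads and 80.9% in bodies, while CpGs 101 to 200 bp outside averaged 4.19% and 4.33%.

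Not every member could be followed in every regime. Within a regime the deposited table gives a CpG reads in all samples or in none. Of the 2302 members, 2008 (87.2%) had reads in the 24 h 5-aza-dC samples, 672 (29.2%) in the 48 h samples and 378 (16.4%) in all 51 samples. For all CpGs of the chromosome these shares were 81.7%, 45.1% and 25.8%. The 378 shared members had a sucrose mean of 84.7% and the others 84.3%.

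Clusters were more methylated in heads than in bodies. In the 33 5-aza-dC samples, which did not choose the members, 47 clusters had at least 3 shared CpGs and at least 10 reads in every sample. Their reads were summed over the 255 shared CpGs they held and tested with a quasi-binomial logistic model that allowed for regime and harvest time, with Benjamini-Hochberg adjustment over the 298 clusters tested on all sequences. Levels passed an adjusted p of 0.05 in 36 of the 47 clusters, all 36 of them higher in heads, by 1.89 to 14.2 percentage points. Of all 298 clusters, 81.2% passed (240 higher and 2 lower in heads), so the share on chromosome 2 was near that background. In the other 11 clusters heads minus bodies lay between -0.0709 and 4.15 points. After each sample was centred on its median cluster, which removes a shift common to the clusters, limma called 3 of the 47, 2 higher and 1 lower in heads, against 34 without centring. Limma calls on the other sequences were not counted, so these values have no background share beside them.

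The largest difference was at 17909292 to 17909661 (370 bp, 9 members, 3 of them shared). The 15 5-aza-dC heads ranged from 64.3% to 91.9% (median 83.9%), and the 18 5-aza-dC bodies from 56.4% to 88.1% (median 67.6%). The groups overlapped, and the head sample at 64.3% and the body sample at 88.1% stood farthest from their own group. This head sample was 1 of the 2 shallowest samples, with a mean of 5.67 reads per shared member CpG. The difference was 14.2 ± 2.73 points (SE, adjusted p = 1.85e-07). Sucrose samples, as a description, had 82.3% ± 8.43 in heads and 69.7% ± 4.47 in bodies (SD, n = 9 each).

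The cluster at 8101482 to 8101801 (320 bp, 9 members, 7 shared) was the only 1 of the 47 in which no head sample overlapped a body sample. Its 15 5-aza-dC heads lay between 83.8% and 93.1% (median 87.5%) and its 18 5-aza-dC bodies between 66.7% and 81.6% (median 78.6%), with a median of 247 reads in heads and 249 in bodies. The difference was 10.9 ± 1.21 points (SE, adjusted p = 5.49e-09). In each of the 3 regimes the lowest head sample stood above the highest body sample. Over the 298 clusters tested on all sequences, 2.68% had no overlap between 5-aza-dC heads and bodies, so 1 of 47 was near that background.

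At 7601093 to 7601286 (194 bp, all 8 members shared), 5-aza-dC heads ranged from 69.2% to 88.9% (median 83.3%) and 5-aza-dC bodies from 61.8% to 79.4% (median 69.8%). Heads were higher by 11.9 ± 1.56 points (SE, adjusted p = 5.49e-09), and the mean was 83.3% in sucrose heads and 68.2% in sucrose bodies. At 29240486 to 29241175 (18 members, 8 shared) the medians were 93.1% in heads and 81.3% in bodies, a difference of 11.2 ± 1.62 points (SE, adjusted p = 1.85e-06). The clusters at 17703036 to 17703775 (17 members, 5 shared) and 24679258 to 24679368 (all 4 members shared) each differed by 10.3 points, with adjusted p-values of 8.39e-07 and 6.80e-09. Centring ended the call in all of these 6 clusters but that at 29240486.

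**Figure D2:**
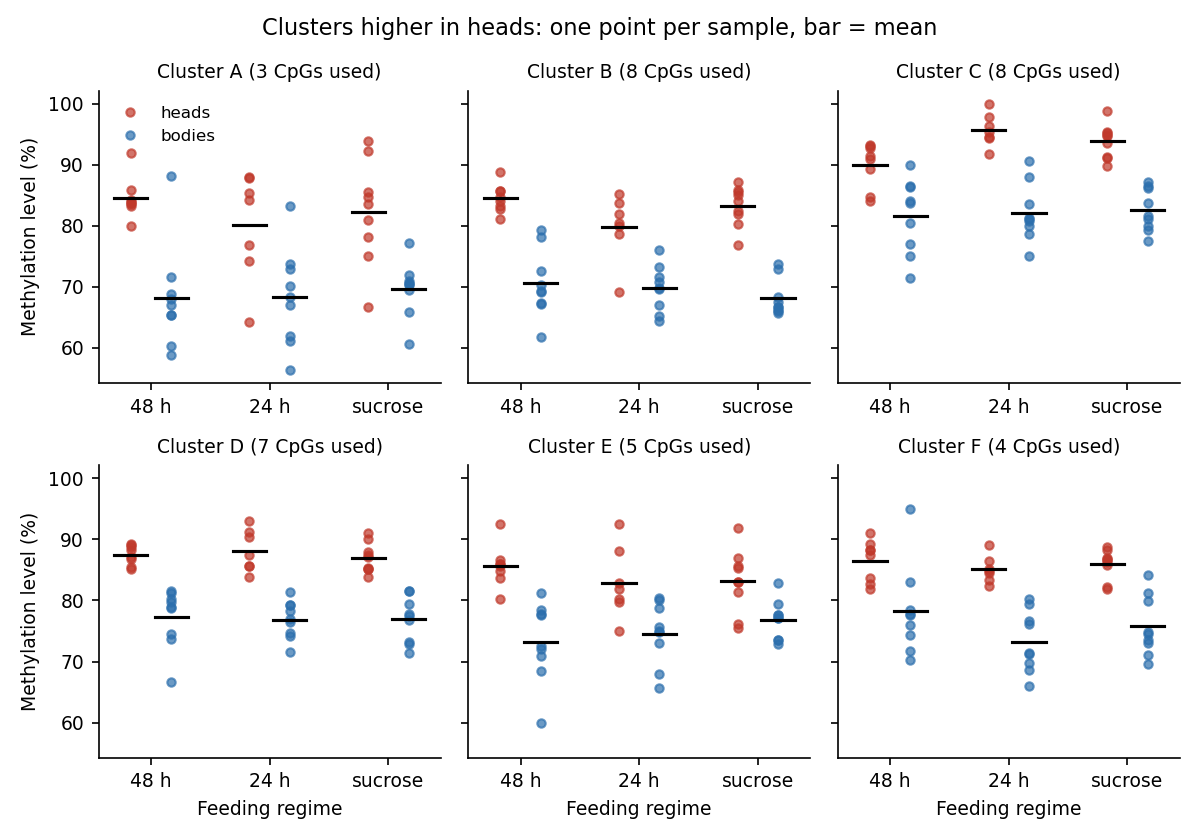
Methylation level (%) of each sample in the 6 clusters with the largest head excess in 5-aza-dC samples, by feeding regime and with heads left of bodies; bars are means. Clusters A to F start at 17909292, 7601093, 29240486, 8101482, 17703036 and 24679258, and heads minus bodies is 14.2 points in A and 10.3 points in E and F.

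The sucrose samples, taken as a description, showed the head excess over all members. The 2302 CpGs averaged 87.9% ± 0.310 in sucrose heads (range 87.3% to 88.3%) and 80.9% ± 0.597 in sucrose bodies (79.9% to 81.7%; SD, n = 9 each), a difference of 7.07 points with no overlap. Means were higher in heads in 360 of the 364 clusters, by a median of 6.80 points (quartiles 4.59 and 9.90). In 37 clusters all head samples lay above all body samples, and in no cluster all below. Such clusters were not counted here for the other sequences. Single CpGs were higher in heads for 2051 members (89.1%), by over 10 points for 656, while 6 members were lower in heads by over 10 points. The difference was 7.29 points at the first and last CpG of the clusters with at least 5 members and 6.68 points in their interior. The weaker CpGs within the clusters averaged 25.2% ± 1.70 in sucrose heads and 22.1% ± 2.18 in sucrose bodies, and methylated CpGs outside clusters 84.0% ± 1.15 in heads and 75.9% ± 0.837 in bodies. Member means on the other sequences differed by 6.17 points (unplaced scaffolds) to 7.47 points (chromosome 3).

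Most clusters could be tested in the 24 h 5-aza-dC samples alone, a fit chosen after the data were seen. It covered 307 clusters and 1907 members. Levels passed the test in 228 clusters, all higher in heads, against 75.3% of the 1793 clusters tested on all sequences. The median difference was 6.59 points (quartiles 4.25 and 9.87). In 34 clusters the 7 head samples lay entirely above the 9 body samples, and no such count is given for the other sequences. Only 7 clusters had a lower mean in heads, and none of these passed. The 48 h samples alone allowed 100 clusters, of which 62 passed, all higher in heads (median difference over the 100 clusters 6.01 points), against 58.7% of the 562 clusters on all sequences.

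The largest differences in the 24 h samples, picked out after their values were seen, were in clusters of 3 CpGs. At 27490414 to 27490461 the mean was 88.6% ± 2.73 in heads (SD, n = 7) and 65.8% ± 10.0 in bodies (n = 9), and the lowest head sample, at 86.1%, stood above the highest body sample, at 75.7%. At 11369178 to 11369223 it was 83.9% ± 5.02 in heads and 61.6% ± 10.6 in bodies. In sucrose samples the same clusters differed by 14.8 and 22.4 points. In the opposite direction, the largest value was -5.32 points at 9826555 to 9826753, where heads averaged 88.4% ± 14.2 and bodies 93.5% ± 2.73, a difference that did not pass.

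In percentage points, the head excess was smaller where clusters were near full methylation. In the 24 h samples its median was 10.0 points over 15 clusters with a sucrose mean of 50% to 70%, 9.54 points over 52 clusters at 70% to 80%, 6.47 points over 189 clusters at 80% to 90% and 4.14 points over 51 clusters at 90% or more. These clusters have at most 10 points left above their mean. In the same order of level, 46.7%, 78.8%, 78.8% and 60.8% of the clusters passed. By the number of CpGs, the median excess was 6.57 points in clusters of 3 or 4 CpGs, 6.76 points at 5 to 9 CpGs and 6.30 points at 10 or more. The share that passed was 61.5%, 78.8% and 89.7% in these classes, as the median reads per sample were 75.5, 158 and 307. Across pairs of consecutive clusters, grouped by distance, Pearson's r of this difference lay between -0.244 (40 pairs) and 0.0710 (78 pairs). The median gap between the differences of a pair was 2.76 points in the 10 pairs up to 2000 bp apart and 3.74 to 4.48 points in pairs farther apart.

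The typical difference was of like size in the regimes, while single clusters varied. In the 47 tested clusters the median of heads minus bodies was 4.99 points in 48 h 5-aza-dC samples, 6.62 points in 24 h samples and 6.24 points in sucrose samples. Across these clusters r was 0.604 between the 48 h and 24 h samples, 0.695 between 48 h and sucrose and 0.575 between 24 h and sucrose. The points of each pair share their libraries. The cluster at 735942, for example, had -0.0787 points in 48 h samples, 7.11 points in 24 h samples and 3.26 points in sucrose samples, and that at 9157090 had 4.98, -1.21 and 8.92 points in the same order. No cluster on chromosome 2 passed the test of a tissue difference that changed between 48 h and 24 h of 5-aza-dC. The quasi-binomial model called 0 of 47 (lowest adjusted p 0.999), limma also called 0, and over all sequences 0% passed. At an unadjusted p under 0.05 there was 1 of 47 on chromosome 2 and 9 of 298 over all sequences.

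**Figure D3:**
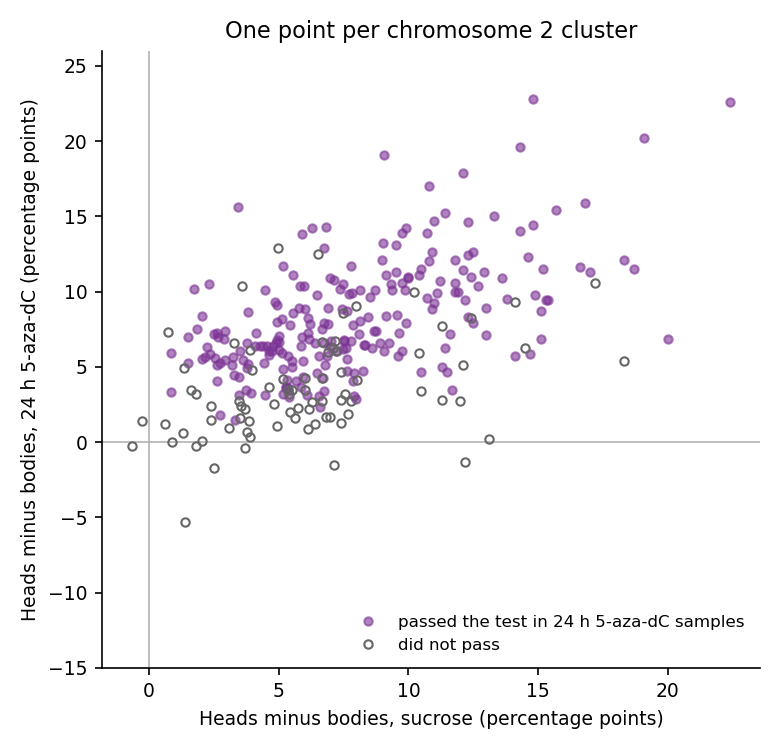
Heads minus bodies (percentage points) in 24 h 5-aza-dC samples (vertical) against sucrose samples (horizontal), 1 point for each of 307 clusters. Filled points passed the test in the 24 h samples (228) and open points did not; nearly all lie above 0 on both axes, up to 22.8 points in the 24 h samples.

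Single CpGs gave the same direction. All 378 shared members met the test's mean of at least 10%, and 117 passed, all higher in heads. They made up 31.0% of the members tested, against 27.5% of 2118 tested CpGs that were methylated by the same threshold elsewhere and 4.25% of all 19110 CpGs tested. These 117 lay in 61 of the 128 clusters that had a shared member, and 116 had the same sign in sucrose samples. With limma 46 passed, and with a mean of 2% as the entry limit, which enlarged the number of tests, 40 passed. After centring on the median methylated CpG, 17 passed, 14 higher and 3 lower in heads. Under these other settings, calls among CpGs that were not members were not counted.

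The CpG at 10528819, in the cluster that starts at 10528766, differed most. Its 15 5-aza-dC heads ranged from 63.6% to 100% (median 82.9%) and its 18 5-aza-dC bodies from 17.6% to 77.1% (median 48.8%), with a median of 28.0 reads in heads and 23.5 in bodies. The difference was 31.0 ± 4.59 points (SE, adjusted p = 0.000112). The CpG at 17909292, the first of the most different cluster above, had medians of 82.4% in heads and 59.1% in bodies, 25.0 ± 3.63 points apart (adjusted p = 1.09e-05). At 8101751, within the cluster without overlap, the medians were 83.5% in heads and 57.7% in bodies, 24.6 ± 2.93 points apart (adjusted p = 1.46e-06). At 10275439 they were 66.7% in heads and 44.8% in bodies, 24.6 ± 4.65 points apart (adjusted p = 0.00426), and this call was lost with the entry limit of 2% (adjusted p = 0.0863).

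Over the shared members, no regime stood far from another. The 378 CpGs averaged 88.6% ± 0.643 in 48 h 5-aza-dC heads (n = 8), 88.6% ± 0.416 in 24 h heads (n = 7) and 88.1% ± 0.349 in sucrose heads (SD, n = 9). In bodies the means were 82.3% ± 1.17 after 48 h of 5-aza-dC, 81.8% ± 1.14 after 24 h and 81.2% ± 0.909 in sucrose (n = 9 each). Averaged over harvest times, 48 h 5-aza-dC minus sucrose was 0.421 points in heads and 1.15 points in bodies, and 24 h minus sucrose was 0.536 and 0.581 points. The sample ranges of the regimes overlapped within each tissue. The level at 129670 CpGs of the chromosome whose mean was under 2%, a gauge of unconverted or misread cytosines, was 2.72% ± 2.75 in 48 h bodies, 0.997% ± 0.979 in 24 h bodies and 0.637% ± 0.255 in sucrose bodies. In heads it was 1.66% ± 0.757, 1.13% ± 0.586 and 0.578% ± 0.218 in the same order. Replicate 1 of 48 h 5-aza-dC bodies at 24 h had the highest such level, 8.31%, and the highest member mean of all body samples, 84.0%. Corrected for this level in each sample, the differences from sucrose were 0.282 points (48 h) and 0.474 points (24 h) in heads, and 0.787 and 0.522 points in bodies. Regime and any batch that followed it cannot be told apart in this design. Libraries of a regime also share their set of deposited CpGs.

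**Figure D4:**
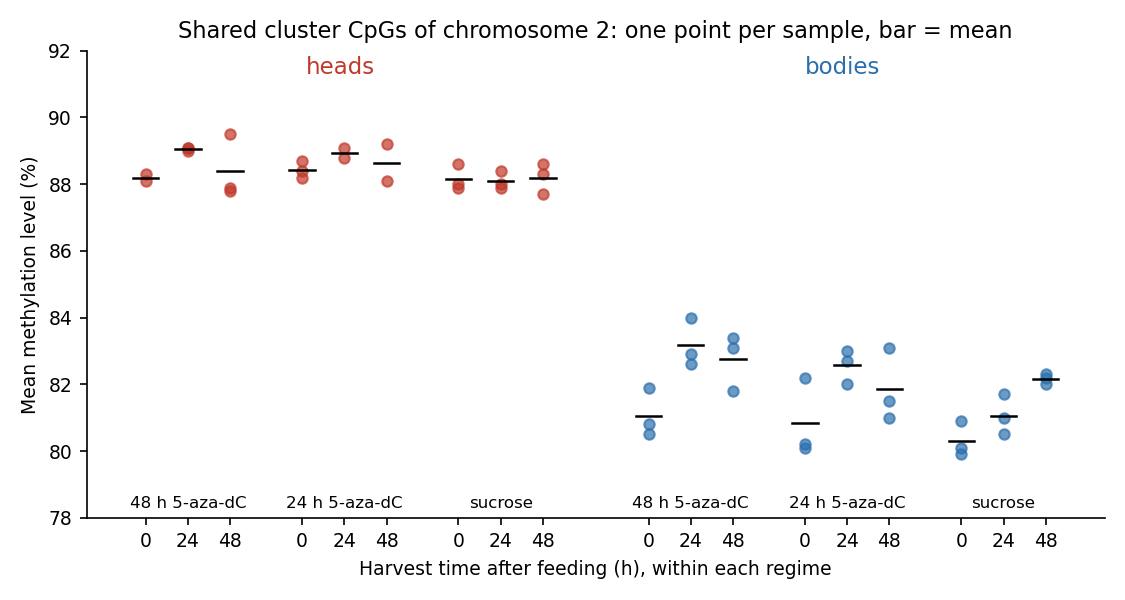
Mean methylation level (%) of the 378 shared member CpGs, 1 point per sample with the mean of each group as a bar, by tissue (heads left), feeding regime and harvest time in h. The axis starts at 78%. All head samples lie between 87.7% and 89.5% and all body samples between 79.9% and 84.0%.

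Between the durations of exposure, 2 of the 47 clusters passed the test, 1 lower and 1 higher after 48 h than after 24 h of 5-aza-dC, against 7.72% of the 298 clusters on all sequences. At 12394771 to 12394898 (128 bp, 8 members, 3 shared) the level was lower after 48 h. It averaged 57.1% ± 13.0 in 48 h samples (n = 17) and 68.1% ± 7.88 in 24 h samples (SD, n = 16), a difference of -12.4 ± 3.43 points (SE, adjusted p = 0.0197), and 66.4% ± 7.87 in sucrose samples (n = 18). At 0 h, heads had 50.5% and 30.5% after 48 h of exposure, against 76.8%, 71.2% and 73.4% after 24 h. Bodies at 0 h had 52.9%, 43.8% and 45.2% after 48 h, against 62.6%, 65.4% and 61.0% after 24 h. At 48 h, heads had 62.1%, 59.6% and 51.4% against 66.7% and 75.1%, and bodies had 56.9%, 60.2% and 58.0% against 70.2%, 66.2% and 76.8%. The durations did not overlap in any of these 4 pairs of groups. However, the first value of each body group comes from a sample whose title gives another harvest time. By the titles, bodies at 0 h would have 79.6%, 43.8% and 45.2% after 48 h, against 50.0%, 65.4% and 61.0% after 24 h, which overlap. At 24 h by the harvest times used here, the durations did overlap. Heads then had 75.0%, 69.6% and 73.9% after 48 h of exposure, against 76.0% and 70.3% after 24 h. Bodies at 24 h had 79.6%, 59.4% and 41.3% after 48 h, against 50.0%, 54.9% and 73.2% after 24 h, with means of 60.1% and 59.4%, so the mean was not lower after 48 h there. The call was lost without replicate 2 of 24 h 5-aza-dC heads at 48 h (-11.7 points, adjusted p = 0.0522). A harvest time effect within the cluster was not called (adjusted p = 0.436).

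At 735942 to 736241 (300 bp, 7 members, 3 shared) the level was higher after 48 h. It averaged 92.6% ± 3.21 in 48 h samples and 85.7% ± 9.12 in 24 h samples, a difference of 6.63 ± 2.37 points (SE, adjusted p = 0.0292), and 90.6% ± 6.16 in sucrose samples. The 48 h samples ranged from 85.8% to 100%, within the span of the 24 h samples, 69.4% to 100%. Limma did not call this cluster without centring (adjusted p = 0.270) or with it (0.255). The call was also lost without the 6 bodies with a title that disagrees on harvest time (adjusted p = 0.126). It was lost without replicate 2 of 24 h 5-aza-dC heads at 24 h (adjusted p = 0.0571), replicate 1 of 24 h bodies at 48 h (0.0866), replicate 3 of 48 h bodies at 0 h (0.0526), and replicates 1 and 2 of 48 h bodies at 48 h, each left out alone (0.0535 for replicate 1 and just over 0.05 for replicate 2).

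No cluster passed the test for a difference among harvest times. The quasi-binomial model called 0 of 47 and limma called 0, against a background of 0% over all sequences. At an unadjusted p under 0.05 there were 12 of 47 on chromosome 2 and 40 of 298 over all sequences. The lowest adjusted p was 0.0594. Without the 6 bodies with a disagreeing title, 1 cluster passed. In bodies, the mean over the 378 shared members was 81.1% at 0 h, 83.1% at 24 h and 82.8% at 48 h after 48 h of 5-aza-dC, 80.8%, 82.6% and 81.9% after 24 h, and 80.3%, 81.1% and 82.2% in sucrose. In heads the means at 0, 24 and 48 h were 88.2%, 89.1% and 88.4% after 48 h of 5-aza-dC, 88.4%, 88.9% and 88.7% after 24 h, and 88.1%, 88.1% and 88.2% in sucrose. By the harvest times used here, the 0 h mean over these shared members was thus the lowest in bodies of every regime and in heads of both 5-aza-dC regimes. Over all members with reads in each regime, it was still the lowest in bodies of every regime and in 24 h heads. In 48 h 5-aza-dC heads it was then 88.5%, against 88.3% at 24 h and 88.3% at 48 h. Sucrose heads had 88.2%, 88.0% and 87.6% at 0, 24 and 48 h over all members. One sample of each body group has a title with another harvest time or none. By the titles, 24 h 5-aza-dC bodies had 82.0%, 82.2% and 80.1% at 0 h over the shared members. At 48 h they had 80.2%, 81.0% and 83.1%, so 0 h did not stand clearly lower there. In bodies of the other regimes the 0 h mean stayed the lowest by the titles. With bodies alone the model called 0 clusters (9 with an unadjusted p under 0.05), and with heads alone 0 (3).

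Some clusters varied between samples of one tissue and harvest time far more than others. Variation was measured by the dispersion, the ratio of the observed spread to that expected from read counts, which had a median of 1.88 over 364 clusters in sucrose samples and also 1.88 over 307 clusters in 24 h samples. A read that covers several CpGs of a cluster is counted at each, and what share this has in values above 1 was not tested. The typical SD between such samples was 4.82 points in 24 h samples and 4.25 points in sucrose samples. The cluster at 30270344 to 30270435 (92 bp, 5 members), near the end of the chromosome, had the highest dispersion in both, 11.6 in 24 h samples and 11.6 in sucrose samples. Its 24 h 5-aza-dC samples ran from 41.9% to 82.0% in heads and from 29.7% to 67.6% in bodies. Its sucrose samples ran from 32.1% to 78.6% in heads and from 38.1% to 75.7% in bodies. Within a single group, the 3 sucrose heads at 0 h had 32.1%, 74.4% and 66.9%, each from at least 106 reads.

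The cluster at 6861890 to 6862438 (549 bp, 12 members) had the next highest dispersion in 24 h samples, 9.96, and was number 3 by dispersion in sucrose samples, with 6.92. In bodies at 24 h it had 57.4%, 85.3% and 69.5% after 24 h of 5-aza-dC, and 67.0%, 84.3% and 79.8% in sucrose. In heads at 24 h it had 82.3% and 61.0% after 24 h of 5-aza-dC, and 81.5%, 70.9% and 83.3% in sucrose. Of the 10 clusters with the highest dispersion, these 2 were shared by both regimes, and across 307 clusters Spearman's rho was 0.247, as a description. The cluster lower after 48 h of 5-aza-dC, at 12394771, was number 10 by dispersion in sucrose samples, with 5.53.

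**Figure D5:**
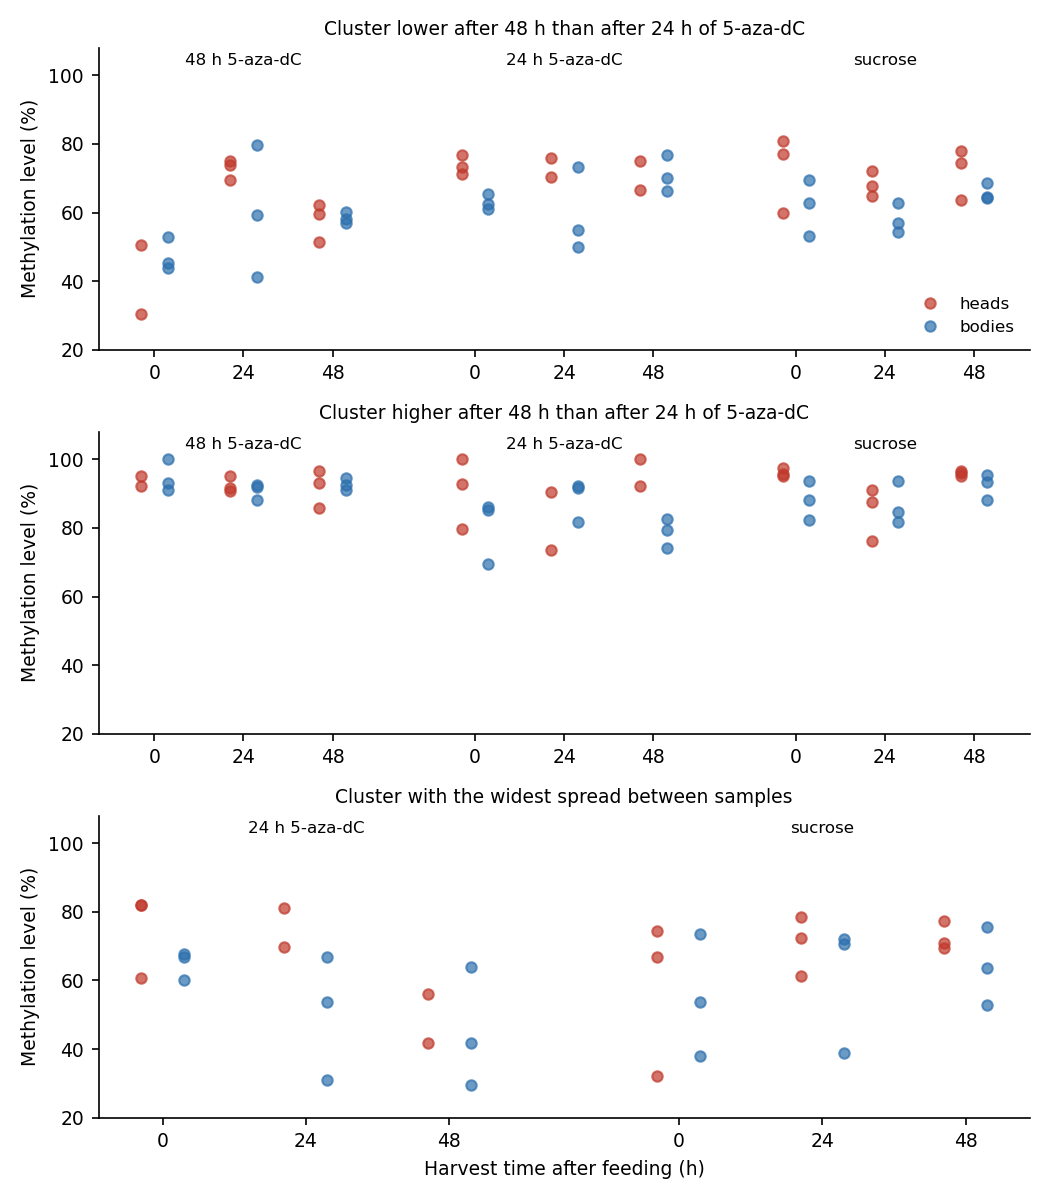
Methylation level (%) of each sample by feeding regime and harvest time in h, with heads left of bodies, for the cluster at 12394771 (top), that at 735942 (middle) and that at 30270344 (bottom, with no reads in 48 h 5-aza-dC samples). The low 48 h 5-aza-dC samples at 0 h stand out in the top panel, down to 30.5%, and the bottom panel shows samples of 1 group as far apart as 32.1% and 74.4%.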

How the data were processed

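The authors deposited, for 51 whole-genome bisulphite libraries, methylated and total read counts per CpG, without normalization. Per the labels' protocols, the EZ DNA Methylation kit was used for conversion and the TruSeq DNA methylation kit for libraries. Tools named in the submitters' processing notes are cutadapt 1.12, Bismark 0.16, Bowtie2, SAMtools, methylKit 0.99.3 and R 3.3.1. The genome build and the handling of duplicate reads are not given in the sources used here, and incomplete conversion raises every level. A CpG with reads had at least 3 in each sample of its regime. Between samples of 1 group at most 2.12% of shared member CpGs had identical counts, and between other pairs of samples at most 9.79%. No libraries were merged.

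Regime, tissue and harvest time came from the labels' characteristics; titles of 9 body samples give another harvest time or none. A cluster's level in a test is its summed methylated reads over its summed reads, and in the description of sucrose samples the mean of its CpG levels. A quasi-binomial logistic model (Pearson dispersion of at least 1, F test) gave p-values in numpy 2.4.6 and scipy 1.17.1 under Python 3.11.15, adjusted over all sequences; limma 3.58.1 in R 4.3.3, on the arcsine-square-root scale, was an alternative. Differences are averages over strata of the other factors. The scripts were tested on simulated data. Named clusters and CpGs are those with the largest called differences (at most 6 clusters or 4 CpGs a direction). Samples are pools labelled as biological replicates; heads and bodies were treated as independent, although they may share females. The members and the lists were chosen with earlier results of these data known. Lists of genes were not used, since no annotation of the table's build was at hand. No deposited column was left out.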

Additional observations from a re-analysis of the deposited data

Results flagged for a closer look

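Over the 8 named clusters and the mean of the shared members, 54 groups of samples (regime and tissue) were examined and 4 had a sample far from the others. The limit used is Dixon's, at which chance flags about 1 in 20 groups. The intervals are 95% Wilson intervals and cover counting error only. They use reads summed over the CpGs of a cluster. A read that covers several CpGs is counted at each, which makes the intervals too narrow. At 17909292 to 17909661, replicate 3 of 48 h 5-aza-dC bodies at 48 h had 88.1% (interval 78.2% to 93.8%, 67.0 reads), and the next body sample of that regime 71.7%. At 12394771 to 12394898, replicate 1 of 48 h 5-aza-dC bodies at 24 h had 79.6% (72.4% to 85.3%, 147 reads), and the next 60.2%. At 7601093 to 7601286, replicate 1 of 24 h 5-aza-dC heads at 48 h, 1 of the 2 shallowest samples, had 69.2% (58.3% to 78.4%, 78.0 reads), and the next 78.6%. At 735942 to 736241, replicate 2 of sucrose heads at 24 h had 76.1% (64.7% to 84.7%, 67.0 reads), and the next 87.5%.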

How the results depend on the processing

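No named cluster or CpG reversed under the alternatives in which it was examined. The named single CpGs were not examined one by one with limma or after centring, where only the number of calls was kept. For heads minus bodies, 36 of 47 clusters passed, 33 to 38 when 1 sample was left out, 34 with limma, 33 with limma on unweighted CpG means, and 3 (2 higher, 1 lower) after centring; with at least 50 reads in every sample 3 passed of only 3 tested. The added fits called 228 of 307 clusters (24 h samples alone) and 62 of 100 (48 h alone), where more clusters have reads. For 48 h against 24 h, 2 passed, against 1 with limma, 1 after centring (each losing that at 735942), 1 without the body samples whose titles differ and 0 of 3 with at least 50 reads. Leaving out 1 sample gave 1 to 3, and 1 call was lost without 24 h 5-aza-dC heads 24 h replicate 2 or heads 48 h replicate 2, 24 h bodies 48 h replicate 1, and 48 h bodies 0 h replicate 3, 48 h replicate 1 or 48 h replicate 2. For harvest times 0 passed, but 1 did without the body samples whose titles differ, and 0 to 1 when 1 sample was left out (24 h bodies 24 h replicate 1, 24 h bodies 48 h replicate 3 or 48 h heads 48 h replicate 2). The interaction stayed at 0 throughout. Of 378 single CpGs 117 passed, 90 to 119 leaving out 1 sample, 46 with limma, 17 after centring (14 higher, 3 lower), 40 with an entry mean of 2%, and 0 of the 3 that had 10 reads in every sample. Requiring 5 CpGs left 199 clusters, and 10 reads in every sucrose sample left 1347 members; leaving out 1 sucrose sample gave 361 to 366 clusters and 2288 to 2311 members. Of the named clusters and CpGs, 390 of 396 values with 1 sample left out and 42 of 52 under other settings kept their direction and call, and the rest kept their direction only. Unless the number tested shows it, the cause was not tested. No paired analysis was possible because replicate numbers follow the order of the samples and link none of them. Low depth limits single CpGs most, since the shallowest samples had under 6 reads per CpG.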

Other observations

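In 4 of the 364 clusters the sucrose mean was lower in heads than in bodies, and only at 4035937 to 4036172 (236 bp, 4 members) by more than 4 points. There sucrose heads averaged 51.1% ± 13.0 (29.7% to 73.1%) and sucrose bodies 67.7% ± 14.5 (48.3% to 87.8%; SD, n = 9 each). The means had the other order after 48 h of 5-aza-dC, 56.4% in heads and 51.6% in bodies, and after 24 h, 76.6% in heads and 70.9% in bodies, over 4 and 2 of its CpGs. The cluster was number 11 by dispersion in sucrose samples, with 5.36. It was picked out after its values were seen, and the difference between regimes was not tested.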
